A study of Arabidopsis thaliana with 24 samples.

Results

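The 71 lipid-transfer protein genes described here were taken from 27782 genes in the deposited Arabidopsis thaliana table by their description, which names a lipid-transfer protein. Of the genes with such a description, 5 genes of the 2S albumin seed storage kind were left out by name. Non-specific lipid-transfer proteins are small secreted proteins in which 8 cysteines form disulphide bridges around a hydrophobic cavity that holds a lipid. In plants they are known for carrying wax and cutin precursors to the cuticle of the epidermis, for responses to drought and abscisic acid, and, in a few members, for long-distance immune signalling. Seedlings of a wild type, of a mutant and overexpressing lines of the endoribonuclease DNE1, and of a mutant of the decapping scaffold VARICOSE (VCS) had been sequenced to compare their transcripts.

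All plants were seedlings of 14 days on the Col0 background, with 3 libraries per group that the labels call biological triplicates. In 2018, batches 1 to 3 each held 1 library of untransformed wild type (WT 1 to 3), of the dne1 T-DNA insertion line (Salk132521), and of 2 lines, OE1 and OE2, that carry a GFP fusion of DNE1 under the 35S promoter. In 2019, wild-type libraries WT 4 to 6 accompanied vcs-6, and WT 7 to 9 accompanied a line with a 35S-driven GFP fusion of DNE1 carrying the D153N substitution. Each overexpressor is 1 transgenic line, so an effect of the insertion site cannot be told apart from that of the transgene. The labels put 1 vcs-6 library in each of batches 4 to 6, but the columns of the table do not say which is which, and they are called a, b and c here. The libraries held 36714564 to 70561391 reads in 2018 and 22611653 to 53908600 reads in 2019. The 2 years had been normalized separately, so each line was tested only against the WT libraries of its own batches.

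DNE1 checked the labels. Its normalized count was 1462 ± 146 in WT 1 to 3 and 309 ± 50.1 in dne1 (SD, n = 3), and it was 21228 ± 2138 in OE1 and 19980 ± 2005 in OE2. The D153N line held 15781 ± 3211 against 820 ± 29.6 in WT 7 to 9. VCS was higher in the libraries labelled vcs-6, at 8115 ± 632 against 5282 ± 600, and a count over the whole gene does not test for the vcs-6 allele. In D153N VCS was lower, at 3501 ± 172 against 4999 ± 306 in WT 7 to 9. The tests described below called both differences (adjusted p = 0.0041 and 0.013, limma). These are whole seedlings, in which fewer cells of a type and less RNA per cell cannot be told apart.

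The genes fall into several kinds by symbol and description. There are 11 numbered LTP genes, 4 GPI-anchored or xylogen genes, 3 genes of the AZI1 and EARLI1 kind, DIR1, 3 glycolipid transfer genes and 2 genes of the START kind, while 47 carry only the superfamily name. EARLI1 itself is described otherwise in the table and is not among the 71. In 60 of the 71, the coding sequence spells the spacing of 8 cysteine codons that defines the fold, with a cysteine pair (CC) followed by a pair separated by 1 codon (CXC). The number of codons between CC and CXC split these 60 into 12 with 8 to 9 codons, 37 with 12 to 16 and 11 with 19 to 20. The stretch from the first to the last of the 8 cysteine codons is shown for 6 genes on which the results turn, to make the classes visible, with the 8 codons in capitals. They were read from the RefSeq TAIR10.1 assembly, in the sense of the gene.
LTP2, long gap, chr2:16128565-16128822, plus strand: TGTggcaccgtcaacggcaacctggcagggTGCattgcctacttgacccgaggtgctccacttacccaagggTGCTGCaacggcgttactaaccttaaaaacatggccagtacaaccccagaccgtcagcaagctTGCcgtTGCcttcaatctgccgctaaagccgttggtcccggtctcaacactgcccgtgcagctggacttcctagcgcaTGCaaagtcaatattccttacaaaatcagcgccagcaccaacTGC
LTP3, long gap, chr5:23929129-23929383, plus strand: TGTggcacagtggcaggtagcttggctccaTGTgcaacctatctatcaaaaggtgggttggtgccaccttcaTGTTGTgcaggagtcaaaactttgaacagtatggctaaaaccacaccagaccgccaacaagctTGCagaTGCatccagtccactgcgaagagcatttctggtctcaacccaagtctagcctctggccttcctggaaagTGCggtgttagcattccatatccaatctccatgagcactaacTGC
AT3G18280, short gap, chr3:6267192-6267389, plus strand: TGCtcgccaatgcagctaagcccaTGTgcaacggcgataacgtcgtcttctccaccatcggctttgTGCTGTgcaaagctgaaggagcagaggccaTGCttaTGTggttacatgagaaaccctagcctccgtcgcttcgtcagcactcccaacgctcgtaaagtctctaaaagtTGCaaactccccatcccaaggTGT
DIR1, short gap, chr5:19646320-19646538, minus strand: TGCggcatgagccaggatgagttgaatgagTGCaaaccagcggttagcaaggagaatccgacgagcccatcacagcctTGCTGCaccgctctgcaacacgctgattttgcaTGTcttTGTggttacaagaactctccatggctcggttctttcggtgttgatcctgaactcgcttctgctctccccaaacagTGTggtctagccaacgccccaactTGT
AZI1, middle gap, chr4:7401377-7401625, minus strand: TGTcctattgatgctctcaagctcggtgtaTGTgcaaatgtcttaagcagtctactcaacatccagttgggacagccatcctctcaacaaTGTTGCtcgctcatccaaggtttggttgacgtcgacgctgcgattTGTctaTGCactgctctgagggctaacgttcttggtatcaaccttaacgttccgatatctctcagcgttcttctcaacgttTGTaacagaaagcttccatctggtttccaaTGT
AT4G22490, middle gap, chr4:11849948-11850187, minus strand: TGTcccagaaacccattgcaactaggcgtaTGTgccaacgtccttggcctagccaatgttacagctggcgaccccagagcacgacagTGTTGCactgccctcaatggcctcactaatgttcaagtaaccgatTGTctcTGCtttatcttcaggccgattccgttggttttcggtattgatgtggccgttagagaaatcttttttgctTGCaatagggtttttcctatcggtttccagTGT

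In the wild type, a few of these genes were among the most abundant in the seedling and many were close to silent. The mean normalized count per kb of transcript over the 9 WT libraries, taken across both separately normalized years, ran from 0 to 69990 with a median of 283. It was over 1000 in 26 genes and under 10 in 18. LP1 (the annotation's symbol for LTP1), an epidermal protein linked to the cuticle, stood highest at 69990 per kb, rank 44 of 27574 genes with a length. Its lowest WT library was at 52279 and its highest at 83956 per kb, so the next member, AT4G22490 with 11499 per kb (6027 to 17206), lay wholly below it. LTPG1, a GPI-anchored protein that exports wax to the cuticle, followed with 10254 per kb, LTP5 with 8633, AT1G62510 with 7591 and LTP2 with 7334. The ranges of these 4 overlapped, as did those of AT4G22505 (6258 per kb), LTP6 (6147) and AT2G37870 (4862). LTPG2, the partner of LTPG1 in wax export, stood at 3125 per kb. LP1 and LTP2 together held between 36.0% and 47.8% of all reads of the 71 genes in the 24 libraries. LTP2 had the smaller mean normalized count of the pair in WT 4 to 6 (7107 against 60217). It had the larger in vcs-6 (166293 against 48862).

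Some genes varied widely among the wild-type libraries. Their spread was taken across both separately normalized years, so differences among plants, batches and years cannot be told apart in it. The SD of log2(normalized count + 1) over the 9 WT libraries was 1.91 in AT4G22470, 1.58 in AT1G62510, 1.43 in AT5G59330, 1.26 in AT5G55450 and 1.21 in AT4G22513, against 0.23 in LP1. AT1G62510, which has a gene on the opposite strand, moved with the batch in 2018. Its normalized count in batches 1, 2 and 3 was 1371, 489 and 3928 in WT, 1121, 658 and 4280 in dne1, 3232, 1445 and 7240 in OE1, and 2300, 1188 and 6411 in OE2. In each of these 4 groups batch 2 was lowest and batch 3 highest.

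At least 10 normalized counts in at least 3 libraries were required for a test, and the filter left 54 of the 71 genes in at least 1 comparison and 52 in all 5. The 17 genes that were never tested include LTP12, whose highest value in any library was 2.02, and AT4G14805, the highest of the 17 with 8.02. A gene was called changed at an adjusted p below 0.05 by limma on log2(normalized count + 1) (Benjamini-Hochberg, over every gene that passed the filter). All log2 changes below are on that scale and are given with their SE, the line minus its WT, with 3 libraries on each side.

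Summed over the 71 genes, lipid-transfer transcripts took up a larger share of the reads in vcs-6 and D153N. The share was 0.399% ± 0.051 of all reads in WT 4 to 6 (0.362% to 0.456%) and 1.23% ± 0.133 in vcs-6 (1.15% to 1.39%), which is 3.09 times as much. It was 0.393% ± 0.073 in WT 7 to 9 (0.318% to 0.464%) and 0.592% ± 0.021 in D153N (0.574% to 0.614%). Neither line overlapped its WT, and both exact two-sided permutation tests gave p = 0.1, the smallest that 3 against 3 libraries allows. In vcs-6 the rise was not shared by all members, with 20 of 52 tested genes called higher and 16 lower. The median log2 change of these 52 was 0.03. LTP2 had a mean normalized count of 7107 in WT 4 to 6 and 166293 in vcs-6. The means were 4307 and 66220 in AT2G37870, and 2426 and 45823 in AT3G18280. In 2018 the shares were 0.329% ± 0.059 in WT, 0.319% ± 0.048 in dne1, 0.351% ± 0.021 in OE1 and 0.363% ± 0.035 in OE2, and these groups overlapped (exact permutation p = 0.6, 0.7 and 0.6). Within batches 1, 2 and 3, OE2 held 0.367%, 0.396% and 0.326% against 0.357%, 0.369% and 0.260% in WT, above it in 3 of 3 batches. OE1 and dne1 were each above WT in 1 of 3.

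**Figure D1:**
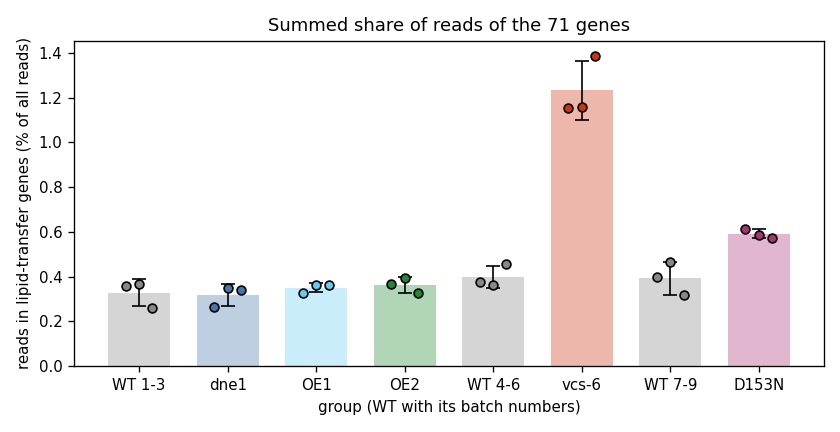
Reads in the 71 lipid-transfer genes as a percentage of all reads, by group. Points are libraries, bars are means of 3 libraries and error bars are SD; the vcs-6 libraries lie between 1.15% and 1.39% and those of D153N between 0.574% and 0.614%, above all WT libraries.

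In vcs-6, 36 of the 52 tested genes changed, 20 higher and 16 lower. The share among all genes was 51.5% (26.7% higher and 24.8% lower), so a change as such was common in these libraries. Of the 16 lower genes 4 (AT1G12100, AT3G52130, AT4G22520 and AT5G59330) passed the filter only through WT, and their tests carry no weight. Of the same 16, 6 lie together on chromosome 4, AT4G22520 among them. The median absolute log2 change of the 52 was 1.37 against 0.52 over all genes tested, and their median signed change was 0.03. In D153N, 10 of 53 changed, 9 higher and 1 lower, beside 15.9% of all genes (9.09% higher and 6.84% lower). The D153N count became 13 (9 higher, 4 lower) in a fit with a replicate block for the batch, beside 10.1% of all genes, and 18 (11 higher, 7 lower) by DESeq2, beside 21.9%. The 8 genes called in both lines were 80% of the D153N calls and 22.2% of the vcs-6 calls, and all 8 moved the same way in both. Over all genes, 69.1% of the D153N calls and 21.2% of the vcs-6 calls were called in both lines, and 94.6% of those moved the same way.

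**Figure D2:**
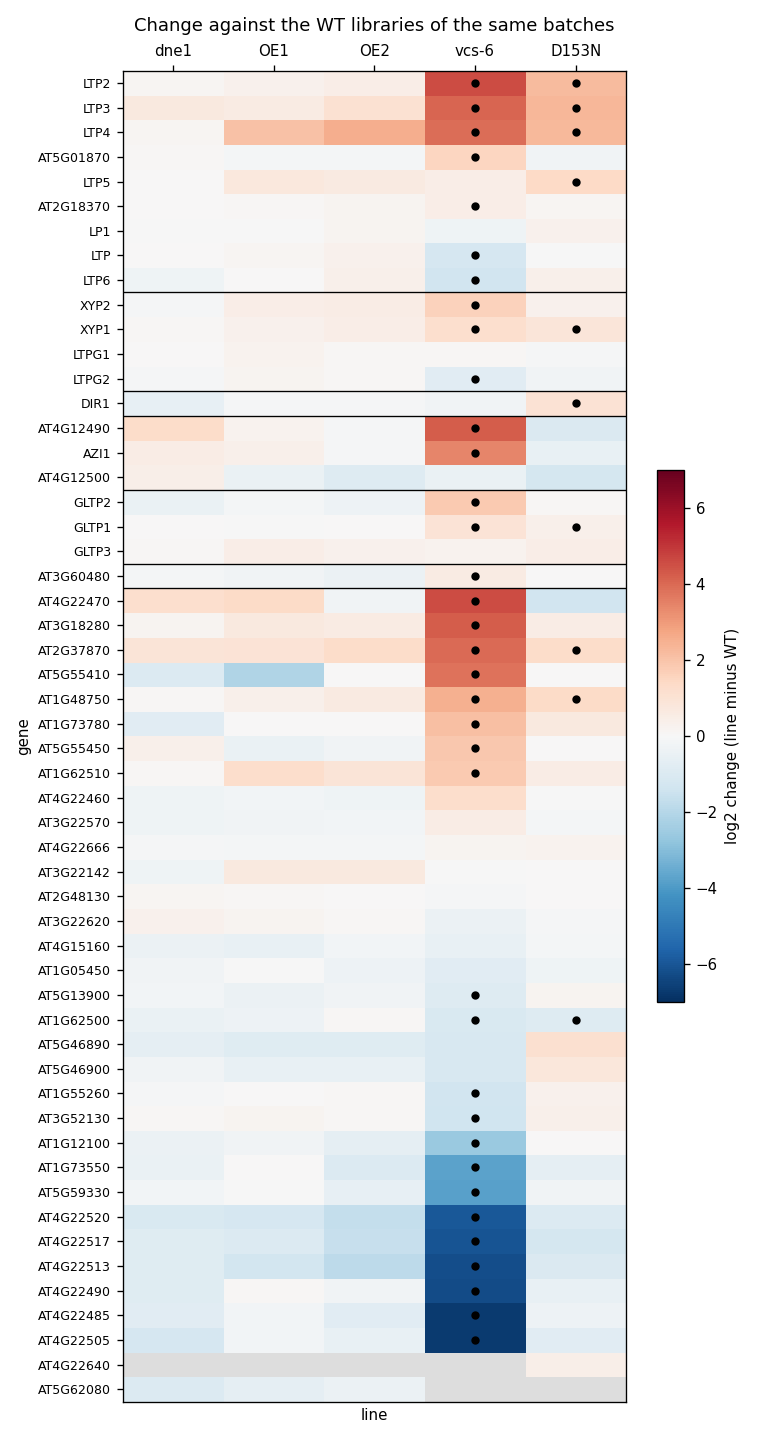
Log2 change of the 54 tested lipid-transfer genes (rows, grouped by kind and ordered by the change in vcs-6) in the 5 lines (columns), each against the WT of the same batches. Red is higher, blue is lower, grey was not tested, and a dot marks an adjusted p below 0.05: 36 dots stand in vcs-6, 10 in D153N and none in dne1, OE1 or OE2.

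Among the numbered LTP genes, LTP2, LTP3 and LTP4 rose in both lines. LTP2, a close neighbour of LP1 on chromosome 2 (chr2:16128176-16129399) and like it an epidermal gene, counted 5444, 7376 and 8500 in WT 4 to 6 and 162428, 143406 and 193045 in vcs-6. All 3 vcs-6 libraries lay far above every WT library, and the rise was 4.56 ± 0.20 (adjusted p = 9.8e-06, limma), or 23.6-fold. In WT 7 to 9 LTP2 counted 8938, 8804 and 4577, and in D153N 38052, 32841 and 27751. Again the groups were apart, with a rise of 2.20 ± 0.27 (adjusted p = 0.0059, limma). LP1 itself did not pass the test in either line, with −0.31 ± 0.17 in vcs-6 (adjusted p = 0.17, limma) and 0.30 ± 0.18 in D153N (adjusted p = 0.28).

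LTP3 and LTP4 are neighbours on chromosome 5 (chr5:23928954-23929816 and chr5:23924990-23925957) and are known to respond to abscisic acid and drought. LTP3 counted 1072, 2504 and 1862 in WT 4 to 6 against 25823, 26642 and 35914 in vcs-6, a rise of 4.09 ± 0.30 (adjusted p = 4.9e-05, limma). It counted 1730, 2039 and 832 in WT 7 to 9 against 7948, 7453 and 6249 in D153N, a rise of 2.33 ± 0.32 (adjusted p = 0.0077, limma). In neither pair of groups did the libraries overlap. LTP4 counted 716, 1952 and 1615 in WT 4 to 6 and 11418, 22390 and 29122 in vcs-6, a rise of 3.90 ± 0.44 (adjusted p = 0.00029, limma). In D153N it counted 6348, 6515 and 4861 against 1468, 2233 and 569, a rise of 2.25 ± 0.46 (adjusted p = 0.023, limma). All D153N libraries were above WT here too, but the call was lost when WT 7 or either of 2 D153N libraries (14 and 15) was left out.

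LTP5 was called by limma in D153N and not in vcs-6. It counted 7575, 8004 and 8433 in WT 7 to 9 and 22936, 18791 and 20494 in D153N, a rise of 1.37 ± 0.10 (adjusted p = 0.0017, limma). All D153N libraries held more than any WT library. In vcs-6 it counted 9722, 7078 and 12360 against 7869, 5820 and 6827, groups that overlap, and the difference was 0.48 ± 0.21 (adjusted p = 0.092, limma). The vcs-6 call depended on the fit, with adjusted p = 0.049 by DESeq2, 0.026 after scaling by library size alone and 0.085 by edgeR. The difference between the vcs-6 and the D153N effect was −0.89 ± 0.25 (adjusted p = 0.013, limma on all 24 libraries).

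Other numbered LTP genes went down or rose less in vcs-6. LTP6 fell by 1.33 ± 0.19 (adjusted p = 0.00079, limma), from 3033, 3906 and 4995 to 1576, 1383 and 1723, and all vcs-6 libraries were below all WT libraries. The gene listed simply as LTP (AT2G15050) fell by 1.19 ± 0.13 (adjusted p = 0.00023, limma). AT5G01870 rose by 1.51 ± 0.22 (adjusted p = 0.00091) and AT2G18370 by 0.47 ± 0.09 (adjusted p = 0.0035). In all, 7 of 9 tested numbered LTP genes changed in vcs-6, 5 higher and 2 lower, beside 51.5% of all genes (26.7% higher and 24.8% lower). In D153N 4 of 9 rose and none fell, beside 9.09% of all genes higher and 6.84% lower.

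**Figure D3:**
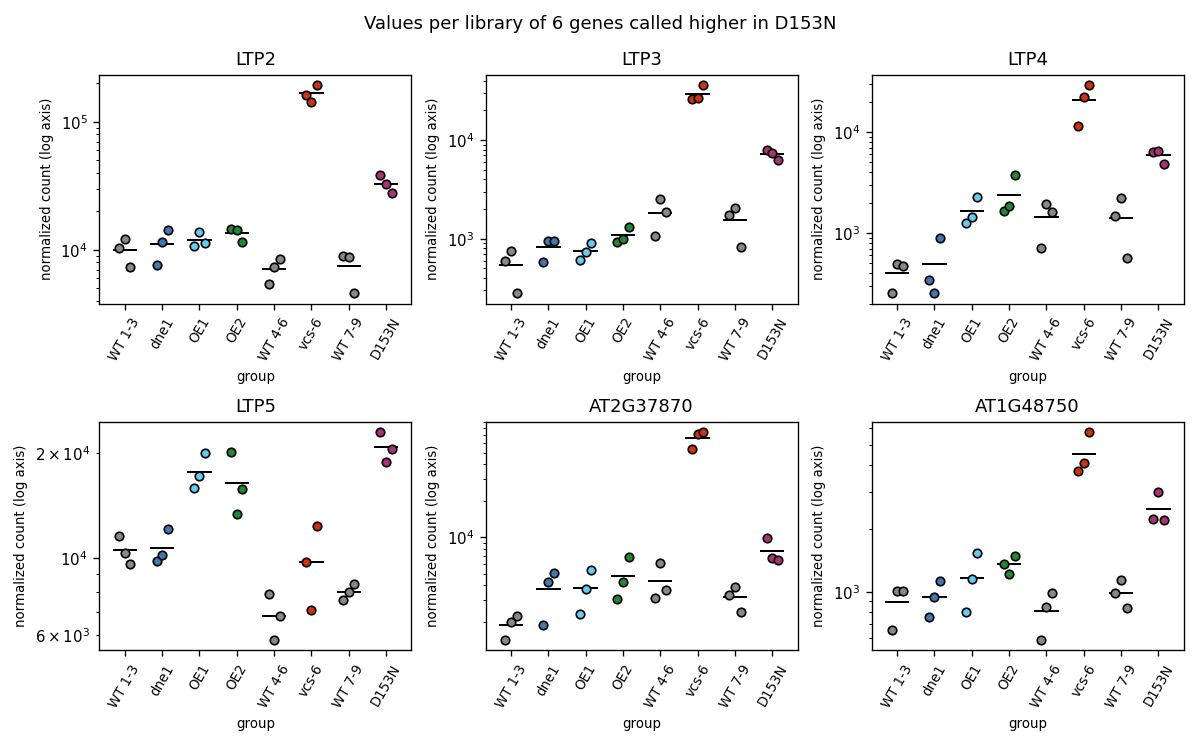
Normalized counts on log axes for LTP2, LTP3, LTP4, LTP5, AT2G37870 and AT1G48750 in the 8 groups. Points are libraries and lines are means of 3; for LTP2 the vcs-6 libraries sit at 143406 to 193045 and the D153N libraries at 27751 to 38052, while WT 4 to 9 stay at or below 8938.

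Abscisic acid, to which LTP3 and LTP4 are known to respond, acts through promoter elements with an ACGTG core. A response to it was not tested here. The sequences just upstream of LTP2 and LTP3 are shown because these genes moved together in both lines. In each, the 250 bases before the annotated start are given 5′ to 3′ along the gene, with any ACGTG, read on either strand, in capitals.
LTP2, chr2:16127926-16128175, plus strand: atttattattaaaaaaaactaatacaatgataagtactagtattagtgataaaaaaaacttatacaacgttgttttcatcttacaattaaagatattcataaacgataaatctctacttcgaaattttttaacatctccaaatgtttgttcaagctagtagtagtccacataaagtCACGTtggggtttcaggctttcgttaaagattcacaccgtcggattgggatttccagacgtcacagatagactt
LTP3, chr5:23928704-23928953, plus strand: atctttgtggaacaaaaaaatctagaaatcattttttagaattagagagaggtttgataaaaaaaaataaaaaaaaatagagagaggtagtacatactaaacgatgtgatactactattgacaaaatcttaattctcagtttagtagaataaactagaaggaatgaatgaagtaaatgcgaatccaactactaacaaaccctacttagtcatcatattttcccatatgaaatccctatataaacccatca
The LTP2 window held 1 match, on the reverse strand, and the LTP3 and LTP4 windows held none. Over 26354 genes, 23.1% of such windows held ACGTG, and among the 71 lipid-transfer genes 21 did. Of the 20 genes higher in vcs-6, 7 held it, of the 16 lower genes 1, and of the 16 tested genes with no call 7. The 16 lower genes include 4 that passed the filter only through WT and 6 that lie together on chromosome 4, with AT4G22520 in both sets. These counts were not tested against one another. In D153N 2 of the 9 higher genes held it (22.2%), the 1 lower gene did not, and 14 of the 43 with no call did (32.6%). A match describes these letters only.

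The GPI-anchored and xylogen genes split by kind. XYP1 and XYP2, xylogen proteins known for vascular differentiation, rose in vcs-6. XYP2 counted 1181, 1190 and 1188 in WT 4 to 6 and 2851, 4240 and 3833 in vcs-6, a rise of 1.60 ± 0.15 (adjusted p = 0.00013, limma). XYP1 counted 673, 858 and 863 in WT against 1182, 2099 and 2250 in vcs-6, a rise of 1.16 ± 0.25 (adjusted p = 0.0056, limma). The groups did not overlap for either gene. XYP1 also rose in D153N, from 585, 746 and 562 to 1100, 1251 and 1025, by 0.84 ± 0.14 (adjusted p = 0.013, limma), a call lost without WT 9. Of the wax-export genes, LTPG2 fell in vcs-6 from 2379, 1468 and 2194 to 1283, 1145 and 1020, by 0.78 ± 0.19 (adjusted p = 0.011, limma). LTPG1 showed a difference of 0.09 ± 0.15 in vcs-6 (adjusted p = 0.64) and −0.06 ± 0.10 in D153N (adjusted p = 0.71). Another gene runs across it on the opposite strand, and the sources used here do not say whether reads were counted by strand.

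The lipid-transfer genes of systemic immunity differed between the lines. AZI1, which primes systemic defence in response to azelaic acid, counted 640, 706 and 1304 in WT 4 to 6 and 14653, 5672 and 8338 in vcs-6. Each vcs-6 library was above all WT libraries, with a rise of 3.40 ± 0.38 (adjusted p = 0.00027, limma), or 10.5-fold. Its neighbour AT4G12490 counted 28.3, 48.5 and 94.0 in WT and 2023, 440 and 1061 in vcs-6, a rise of 4.25 ± 0.59 (adjusted p = 0.00079, limma), though it too has a gene on the opposite strand. The third gene of that group, AT4G12500, counted 48.9, 41.0 and 132 in WT against 38.5, 31.4 and 77.8 in vcs-6, and these values overlap (adjusted p = 0.45). EARLI1, which lies among them, rose by 2.30 ± 0.47 in vcs-6 (adjusted p = 0.0050, limma). In D153N the AZI1 values of 2200, 541 and 2407 fell among and below the WT values of 1466, 3368 and 1627 (−0.50 ± 0.60, adjusted p = 0.60).

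DIR1, which is needed for the long-distance signal of systemic acquired resistance, rose in D153N and not in vcs-6. It counted 411, 527 and 439 in WT 7 to 9 and 777, 1064 and 986 in D153N, with no overlap and a rise of 1.03 ± 0.15 (adjusted p = 0.0094, limma), a call lost without WT 9. In vcs-6 it counted 486, 328 and 418 against 523, 426 and 502, a difference of −0.25 ± 0.17 (adjusted p = 0.26). The vcs-6 effect minus the D153N effect was −1.28 ± 0.30 (adjusted p = 0.0035, limma on all 24 libraries). DIR1 overlaps a gene on the opposite strand.

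Genes that carry only the superfamily name gave some of the largest changes. Of 31 tested in vcs-6, 8 rose (25.8%) and 13 fell (41.9%), beside 26.7% and 24.8% of all genes. The 13 include AT1G12100, AT3G52130, AT4G22520 and AT5G59330, which passed the filter only through WT. They also include the 6 lower genes of a run on chromosome 4 described below, AT4G22520 among them. Of 32 tested in D153N, 2 rose (6.25%) and 1 fell (3.1%), beside 9.09% and 6.84% of all genes. AT3G18280, an intronless gene of the short-gap class on chromosome 3, counted 1936, 2366 and 2976 in WT 4 to 6 and 41389, 43351 and 52730 in vcs-6, a rise of 4.25 ± 0.18 (adjusted p = 8.8e-06, limma). AT2G37870 counted 3136, 6135 and 3651 in WT and 53309, 71264 and 74086 in vcs-6, a rise of 3.99 ± 0.26 (adjusted p = 3.3e-05, limma). In both genes the lowest vcs-6 library was far above the highest WT library. AT2G37870 also rose in D153N, from 3321, 3853 and 2402 to 9798, 6775 and 6499, by 1.27 ± 0.22 (adjusted p = 0.015, limma), a call lost without WT 9. AT3G18280 counted 3827, 3258 and 2979 there against 2358, 2684 and 1902, a difference of 0.54 ± 0.15 that narrowly missed the threshold (adjusted p = 0.054) and passed it with the batch as a replicate block (adjusted p = 0.047).

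AT1G48750, of the short-gap class with a gene on the opposite strand, rose in both lines. Its counts were 589, 846 and 987 in WT 4 to 6 against 3775, 4111 and 5772 in vcs-6 (2.50 ± 0.23, adjusted p = 0.00011, limma), and 988, 1135 and 840 in WT 7 to 9 against 2219, 2988 and 2206 in D153N (1.32 ± 0.16, adjusted p = 0.0056). Neither line overlapped its WT. AT5G55410 rose in vcs-6 from 12.7, 35.6 and 32.9 to 445, 361 and 292, by 3.81 ± 0.39 (adjusted p = 0.00018, limma). The glycolipid transfer gene GLTP1 rose by 0.95 ± 0.16 in vcs-6 (adjusted p = 0.0022) and by 0.38 ± 0.08 in D153N (adjusted p = 0.024), where the replicate block ended the call (adjusted p = 0.058), as did leaving out any 1 library other than D153N 13. GLTP2 rose by 1.82 ± 0.43 in vcs-6 (adjusted p = 0.0090).

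By the spacing of the cysteines, 4 of 5 tested short-gap genes were higher in vcs-6 and none lower, with a median log2 change of 2.50. Of 29 tested middle-gap genes 7 were higher and 11 lower, and of 9 long-gap genes 5 were higher and 2 lower. Of 9 tested genes without the spacing, 4 were higher and 3 lower. Over all genes 26.7% were higher and 24.8% lower in vcs-6. AT1G12100 and AT4G22520, among the 11, passed the filter only through WT, as did AT3G52130 and AT5G59330 among the 3. Also among the 11, AT4G22490, AT4G22505, AT4G22513, AT4G22517 and AT4G22520 lie together on chromosome 4. AT4G22485, among the 3, lies in the same run. In D153N, 2 of 5 short-gap, 2 of 30 middle-gap and 4 of 9 long-gap genes were higher. So was 1 of 9 without the spacing, beside 9.09% of all genes. The one lower gene was in the middle class, beside 6.84% of all genes lower. These counts are small and were not tested against one another.

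The largest falls came from one stretch of chromosome 4. From AT4G22460 to AT4G22520 (chr4:11838960-11858970) 8 lipid-transfer genes lie together, and 6 of them were called lower in vcs-6, with log2 changes of −5.92 to −6.70. Summed over these 6, WT 4 to 6 held 31031 ± 14068 normalized counts (19894 to 46841) and vcs-6 held 323 ± 104 (230 to 436). AT4G22490 alone, the gene of the run with no overlapping neighbour and the second most abundant of all 71 in the wild type, counted 5891, 4725 and 9762 in WT and 71.5, 119 and 69.0 in vcs-6. Every vcs-6 library was far below every WT library, and the log2 change was −6.26 ± 0.30 (adjusted p = 1.2e-05, limma), or 76.4-fold. AT4G22485 changed by −6.68 ± 0.35 (adjusted p = 1.5e-05) and AT4G22505 by −6.70 ± 0.34 (adjusted p = 1.3e-05). AT4G22513 and AT4G22517 changed by −6.18 ± 0.52 and −6.04 ± 0.56 (adjusted p = 8.8e-05 and 0.00012). AT4G22520 counted 276, 170 and 368 in WT and 4.40, 6.44 and 0.972 in vcs-6, so it passed the filter only through WT.

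Within the same run, AT4G22470 went the opposite way. It counted 23.5, 85.2 and 78.8 in WT 4 to 6 and 2006, 1582 and 670 in vcs-6, a rise of 4.54 ± 0.56 (adjusted p = 0.00044, limma), or 23.3-fold. All vcs-6 libraries exceeded all WT libraries of those batches, although WT 8 of the other set reached 1142. AT4G22460, at the start of the run, counted 522, 162 and 180 in vcs-6 against 166, 79.8 and 89.3, groups that overlap (adjusted p = 0.063). Genes of other kinds in and beside the run did not share one direction. AT4G22530, between the lipid-transfer genes, rose by 0.66 ± 0.14 (adjusted p = 0.0050), AT4G22540 beside it changed by −0.90 ± 0.16 (adjusted p = 0.0023), and AT4G22550 by −0.18 ± 0.22 (adjusted p = 0.52). Larger changes beside the run were −4.04 ± 0.68 in AT4G22545 (adjusted p = 0.0019) and −2.21 ± 0.64 in AT4G22560 (adjusted p = 0.021). AT4G22390, on the other side, rose by 2.90 ± 0.28 (adjusted p = 0.00015, limma). AT4G22545 had means of 50.1 in WT 4 to 6 and 2.91 in vcs-6, and passed the filter only through WT. Besides AT4G22490, the genes of the run overlap opposite-strand genes, and AT4G22513 and AT4G22517 share about 11.5% to 11.7% of their 31-base words.

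In D153N no gene of the run was called by limma without a block, and DESeq2 without a block called 5 of the 6 lower. Its adjusted p was 0.0067 in AT4G22517, 0.032 in AT4G22505, 0.040 in AT4G22520, 0.042 in AT4G22513 and 0.0499 in AT4G22490. The 6 genes summed to 17010 ± 2720 against 27869 ± 10408 in WT 7 to 9, and AT4G22490 counted 6143, 5470 and 5613 against 9000, 10855 and 5876 (−0.54 ± 0.21, adjusted p = 0.13). With the batch as a replicate block AT4G22513, AT4G22517 and AT4G22520 were called lower, by 1.00 ± 0.16, 1.22 ± 0.12 and 0.97 ± 0.18 (adjusted p = 0.029, 0.013 and 0.037, limma).

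**Figure D4:**
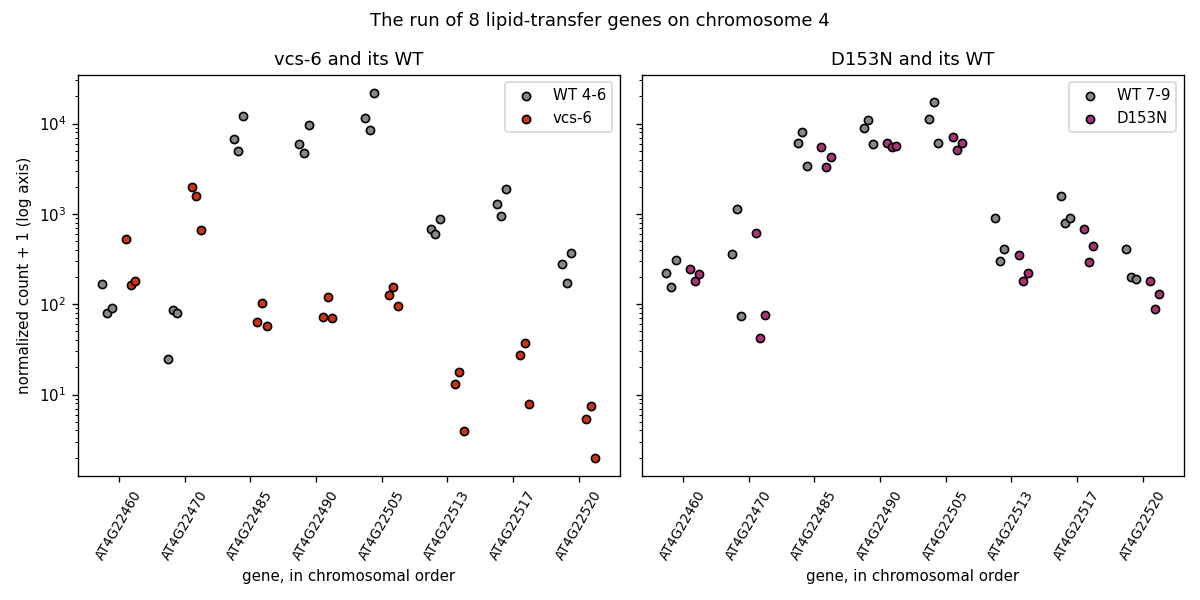
Normalized count + 1 on a log axis for the 8 lipid-transfer genes of the run on chromosome 4, in chromosomal order, for vcs-6 with WT 4 to 6 (left) and D153N with WT 7 to 9 (right). Points are libraries. In vcs-6, 6 genes sit far below WT and AT4G22470 sits above. The D153N points lie within or below those of WT, and wholly below them in AT4G22517 and AT4G22520.

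Other falls were smaller in extent. AT1G62500 fell in both lines, from 422, 311 and 536 to 192, 190 and 200 in vcs-6 (−1.08 ± 0.20, adjusted p = 0.0031, limma) and from 535, 467 and 499 to 299, 228 and 270 in D153N (−0.92 ± 0.13, adjusted p = 0.0086). Both lines lay wholly below their WT, and it was the only gene called lower in D153N. Its neighbour AT1G62510, at 27233, 18479 and 26121 in vcs-6 against 9175, 4411 and 7151, rose by 1.83 ± 0.28 (adjusted p = 0.0011). AT5G59330, next to LTP3, counted 24.4, 44.2 and 67.0 in WT 4 to 6 and 2.20, 0.805 and 3.89 in vcs-6, and no vcs-6 library reached the filter. AT1G73550 changed by −3.75 ± 0.38 (adjusted p = 0.00019, limma). AT1G12100 counted 39.1, 22.7 and 56.4 in WT and 6.60, 4.83 and 4.86 in vcs-6. AT3G52130, which has a gene on the opposite strand, counted 19.6, 17.3 and 28.2 in WT and 4.40, 9.66 and 9.72 in vcs-6. These 2 genes also passed the filter only through WT, so their place among the called genes was fixed in part by the filter.

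Set side by side, the lines differed in 31 of the 54 genes by a test of the vcs-6 effect minus the D153N effect, 14 more positive and 17 more negative in vcs-6, beside 26.3% of all genes (13.3% and 13%). LTP2 and LTP3 were among the first, with differences of 2.37 ± 0.37 (adjusted p = 0.00011, limma) and 1.76 ± 0.51 (adjusted p = 0.015). For LTP4 the difference of 1.65 ± 0.74 did not pass (adjusted p = 0.11).

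**Figure D5:**
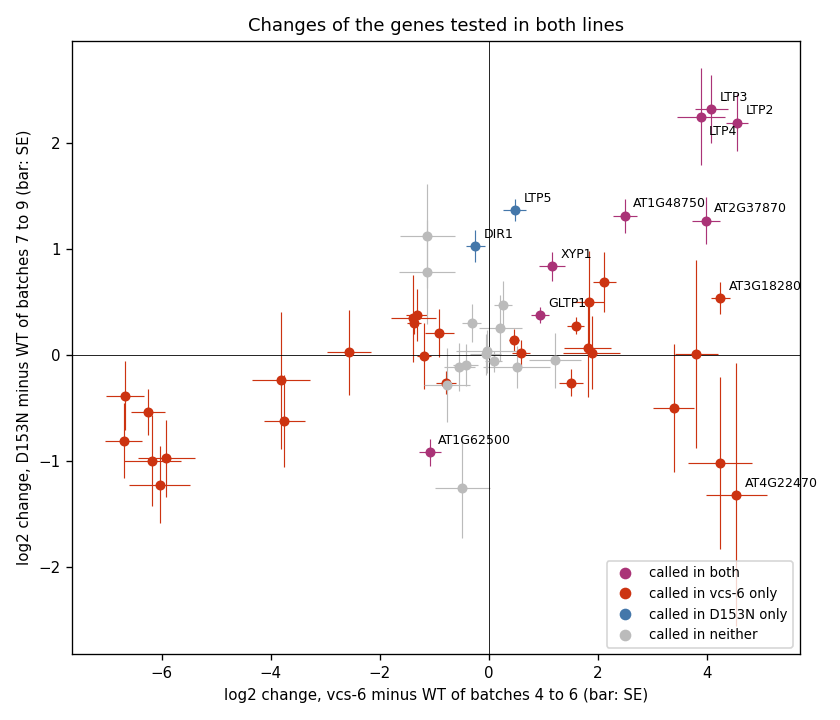
Log2 change in vcs-6 (horizontal) and in D153N (vertical) for the genes tested in both lines, each against its own WT libraries, with bars of 1 SE. LTP2, LTP3 and LTP4 stand at the upper right, LTP5 and DIR1 were called by limma in D153N and not in vcs-6, and the 6 genes of the chromosome 4 run stand at the far left.

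In the lines that overexpress unaltered DNE1, the calls depended on the fit. By limma without a block 0 of 53 were called in OE1, beside 0.139% of all genes, and 0 of 53 in OE2, beside 0.171%. At an unadjusted p below 0.05 there were 5 in OE1, beside 6.88% of all genes, and 11 in OE2, beside 6.37%. The test by edgeR called 0 in either line (beside 0.074% and 0.0925% of all genes). The OE1, OE2 and dne1 comparisons share WT 1 to 3. With the batch as a replicate block 5 were called higher in OE1, beside 1.24% of all genes, and 3 in OE2, beside 1.17%. DESeq2 without a block called 3 in OE1 (LTP4, LTP5 and AT3G18280), beside 0.962% of all genes, and 2 in OE2 (LTP4 and LTP5), beside 0.795%.

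LTP4 had the largest rise in both lines. It counted 253, 492 and 469 in WT 1 to 3, 1249, 1456 and 2267 in OE1, and 1652, 1835 and 3723 in OE2, so that every overexpressor library was above every WT library. The differences were 2.04 ± 0.47 (adjusted p = 0.18, limma) and 2.53 ± 0.47 (adjusted p = 0.085). With the block they passed, at 2.04 ± 0.26 (adjusted p = 0.0079) and 2.53 ± 0.26 (adjusted p = 0.0030). LTP5 counted 11578, 10338 and 9624 in WT against 15837, 17172 and 20007 in OE1 and 20069, 13334 and 15764 in OE2, again without overlap. Its differences were 0.75 ± 0.16 (adjusted p = 0.17; 0.043 with the block) and 0.62 ± 0.16 (adjusted p = 0.33; 0.092 with the block).

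AT2G37870 and AT1G62510 passed with the block in both lines and not without it. AT2G37870 counted 1411, 2008 and 2221 in WT, 2308, 3710 and 5338 in OE1, and 3075, 4294 and 6875 in OE2. It differed by 0.95 ± 0.42 in OE1 (adjusted p = 0.70; 0.017 with the block) and by 1.28 ± 0.42 in OE2 (adjusted p = 0.53; 0.0052 with the block). It was also above WT in each batch of dne1, at 1891, 4281 and 5044, by 0.90 ± 0.42 (adjusted p = 1.0, limma; 0.28 with the block). In the authors' deposited table (DESeq2) its log2 change was 0.71 in dne1 (adjusted p = 0.0027) and 0.92 in the pooled overexpressors (adjusted p = 1.9e-09). For AT1G62510, whose batch values are given above, the block values were 1.23 ± 0.15 (adjusted p = 0.0070) and 0.91 ± 0.15 (adjusted p = 0.023). AT3G18280 was the fifth gene in OE1, at 0.67 ± 0.12 with the block (adjusted p = 0.028). LTP2, with 10647, 13777 and 11376 in OE1 and 14627, 14347 and 11460 in OE2 against 10300, 12206 and 7321, overlapped WT in both lines.

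The D153N effect was then set against the mean of the OE1 and OE2 effects. Of 54 genes 2 differed, beside 2.15% of all genes (1.84% higher), and both were higher with D153N. LTP2 differed by 1.82 ± 0.35 (adjusted p = 0.0080, limma on all 24 libraries). DIR1 differed by 1.12 ± 0.28 (adjusted p = 0.042), a call that remained in 5 of 15 fits with 1 library left out, whereas that of LTP2 remained in 15 of 15. For LTP3 the difference was 1.50 ± 0.48 (adjusted p = 0.11), and for LTP4 it was −0.04 ± 0.69 (adjusted p = 0.99). The D153N and overexpressor libraries come from different years, each with its own WT.

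In the dne1 mutant 0 of 53 genes were called, beside 0.0185% of all genes, and 2 had an unadjusted p below 0.05, beside 1.63% of all genes. DESeq2 and edgeR also called 0, beside 0.0324% and 0.0185% of all genes. The 2 genes were AT4G22490, at 4152, 6810 and 9458 against 13490, 10606 and 10933 in WT, and DIR1, at 647, 867 and 1101 against 1110, 1274 and 1524. AT4G22490 lay below WT in every dne1 library (−0.85 ± 0.30), and DIR1 was below WT in every library too (−0.60 ± 0.23), but with adjusted p = 1.0 for both (limma).

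The genes that make and export the cuticle, in which several lipid-transfer proteins act, fell in vcs-6. Of 35 wax and cutin genes, 33 were tested there, 0 rose and 26 fell, beside 24.8% of all genes, with a median log2 change of −1.19 against 0.003 over all genes. CUS2, a cutin synthase, changed by −5.58 ± 0.27 (adjusted p = 1.2e-05, limma), the epidermal regulator MYB106 by −4.89 ± 0.34 (adjusted p = 4.2e-05) and the cutin hydroxylase CYP77A6 by −3.80 ± 0.24 (adjusted p = 3.1e-05). The cuticle regulators SHN2 and SHN3, among the 26, passed the filter only through WT, with means of 34.2 and 63.0 in WT and 4.08 and 1.45 in vcs-6. LTP2 rose in the same libraries in which these fell. In D153N, 7 of 34 fell, beside 6.84% of all genes, among them CUS2 (−0.81 ± 0.18), ABCG32 (−0.77 ± 0.08), LACS1 (−0.71 ± 0.16) and MYB30 (−0.59 ± 0.13). MAH1 was the one called higher, with means of 1.30 in WT and 20.2 in D153N, and it passed the filter only through D153N. None of the list was called in dne1, OE1 or OE2.

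Of 13 suberin genes, vcs-6 had 1 higher (KCS2, 0.89 ± 0.13) and 2 lower (KCS20, −1.74 ± 0.15, and ABCG20, −0.82 ± 0.23), and D153N had none, beside 51.5% of all genes called in vcs-6 and 15.9% in D153N. Of 11 partners of DIR1 and AZI1 in systemic resistance, 4 were called higher and 3 lower in vcs-6, beside 51.5% of all genes, and 1 in D153N, beside 15.9%. The defence marker PR1, one of the 4, passed the filter only through vcs-6. It stood at a mean of 183 normalized counts in vcs-6 and 0.326 in WT 4 to 6, and PDLP1, a plasmodesmal protein, rose by 2.21 ± 0.62. The lectin-like LLP1 changed by −4.55 ± 0.43 in vcs-6 and by −2.16 ± 0.28 in D153N (adjusted p = 0.0064, limma). ALD1, an enzyme of pipecolic acid synthesis, had a mean of 2.71 in vcs-6 and 36.8 in WT 4 to 6, and passed the filter only through WT.

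The marker lists are read against the same 51.5% and 15.9% of all genes. Of 7 epidermis markers 6 fell and 0 rose in vcs-6, and their summed normalized count was 21349 to 27260 against 32986 to 43273 in WT 4 to 6. In D153N 2 fell, GL2 and FDH, and the sum was 35938 to 37788 against 35542 to 44469. Of 12 root markers 2 rose and 1 fell in vcs-6, where their sums of 6194 to 9445 overlapped those of 5321 to 7760 in WT, and none was called in D153N. Of 6 seed and embryo markers 5 were called higher in vcs-6, with a sum of 1657 to 6796 against 607 to 1120, and 2 of the 5, EM1 and EM6, passed the filter only through vcs-6. In D153N 2 were called lower, with a sum of 18.2 to 220 against 585 to 670, and CRC of these passed only through WT. The seed marker sum was 280 to 1454 in WT 1 to 3, 25.4 to 383 in dne1, 15.1 to 30.8 in OE1 and 15.7 to 1491 in OE2. OE1 lay wholly below WT there, and none of these markers was called in the 2018 lines. Of 6 anther and tapetum markers 3 have values (AMS, TDF1 and SPL), with sums of at most 11.5 in every library, and none was tested; the other 3 were not analysed here. The part of these shifts in the changes of the lipid-transfer genes was not tested.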

How the data were processed

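The deposited table lists 27782 genes with normalized counts (a signal scaled by size factors) that the authors made from 24 mRNA libraries. Per the labels' protocols, TRIZOL was used for RNA and a Lexogen kit (SENSE mRNA-Seq) for the libraries. The submitters' processing notes name HISAT2 2.1.0, bcl2fastq 2.17.1.14, DESeq2, HTSeq and the TAIR10 build, and the file header names DESeq2 1.24.0. The authors' deposited log2 fold changes and p-values were counted for comparison, and those of AT2G37870 are quoted. Not all of the 71 genes have an adjusted p in the authors' deposited table. Of those that do, it falls below 0.05 in 1 of 50 in dne1 and 10 of 55 in the pooled overexpressors. It does so in 12 of 55 in D153N and 40 of 58 in vcs-6. The matching shares of all genes are not given here, so these counts have no background.

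The members were found by their description, and all 71 matched RefSeq TAIR10.1, which gave names, lengths and sequences. The members and the gene lists were chosen with earlier results of these data known. Named genes are those with an LTP, LTPG, XYP, AZI or DIR symbol, up to 10 with the largest changes in each direction per comparison, the 10 most abundant and the 5 most variable in WT, up to 5 per direction for a difference of effects and up to 4 per direction for a list. AT5G01870, AT2G18370 and GLTP2, and in vcs-6 or the overexpressors AT1G62500, AT1G62510, AT2G37870, AT3G18280 and GLTP1, were named after their values were seen; the neighbours on chromosome 4, EARLI1, DNE1 and VCS are context.

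Tests used limma 3.58.1 (R 4.3.3) with an intensity trend on log2(normalized count + 1), over genes with at least 10 in at least 3 libraries: all 12 libraries of 2018 in one fit, 6 libraries each for vcs-6 and D153N, and all 24 for differences of effects. The test was also run on simulated data, but the result is not given here and nothing is drawn from it. Dividing by the smallest step gave whole reads for 100% of values (tolerance 1e-06), and DESeq2 1.42.0 and edgeR 4.0.16 were run on these reads. The labels give shared batches: deviations from the group means correlated at 0.14 to 0.68 within a batch of 2018 (18 pairs) and at 0.07 to 0.23 within batches 7 to 9 (3 pairs).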

Additional observations from a re-analysis of the deposited data

Results flagged for a closer look

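These 12 results were singled out because the effect of one line differed from that of another by a test of the difference itself (limma on all 24 libraries, Benjamini-Hochberg adjustment over 22214 genes). Between vcs-6 and D153N, the difference of the log2 changes was −6.30 ± 0.75 for AT4G22485 (adjusted p = 5.7e-06). For its neighbours the difference was −5.89 ± 0.73 in AT4G22505, −5.72 ± 0.45 in AT4G22490, −5.18 ± 1.01 in AT4G22513 and −4.94 ± 0.84 in AT4G22520. It was positive, at 5.86 ± 1.52, in AT4G22470 of the same run (adjusted p = 0.0074).

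Outside the run, the vcs-6 effect exceeded the D153N effect by 5.26 ± 1.19 in AT4G12490, 3.89 ± 0.71 in AZI1, 3.80 ± 1.32 in AT5G55410 (adjusted p = 0.040) and 3.71 ± 0.25 in AT3G18280 (adjusted p = 6.4e-09). The D153N effect exceeded the mean overexpressor effect by 1.82 ± 0.35 in LTP2 (adjusted p = 0.0080) and by 1.12 ± 0.28 in DIR1 (adjusted p = 0.042).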

How the results depend on the processing

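Of the values of single genes under other settings, 1289 kept their direction and their side of the threshold, 49 fell back across it, 32 passed it and 0 reversed. The number of genes called moved by more than 1.5 times in these cases. In OE1 it was 0, with DESeq2 3 and with the replicate block (batch) 5. In OE2 it was 0, with all 24 libraries in one fit 1, with DESeq2 2 and with the block 3. In D153N it was 10 and with DESeq2 18 (11 higher and 7 lower), beside 21.9% of all genes. The block changed no count by that much in dne1 (0) or D153N (13); it was not run for vcs-6, whose columns carry no batch. Leaving out 1 library at a time gave 31 to 37 calls in vcs-6, 7 to 13 in D153N, 0 to 0 in dne1, OE1 and OE2, 24 to 29 for vcs-6 minus D153N, and 1 to 2 for D153N minus the overexpressors, where 1 was left without D153N 14 or 15, OE1 1 or 2, OE2 2, WT 2, WT 7, WT 8 or WT 9. The shares of all genes called in these reduced fits are not given here, so shifts in the counts have no background. Using batches 1 and 2 only, a choice made after seeing the data, gave 0 calls in dne1, OE1 and OE2. The causes were not tested. Scaling by library size alone moved the median of all genes by 0.118 in vcs-6. Depth limits the genes with few reads, such as AT3G52130 with 26 reads over the vcs-6 libraries.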
